A study of Mus musculus with 2 samples.

Results

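The genes described here encode proteins that visceral endoderm, the outer epithelium of the early yolk sac, secretes: Afp, Ttr, Rbp4, Spink1 and Alb. All probe sets assigned to exactly 1 gene symbol, that of one of these genes, were taken, which gave 12 probe sets for 5 of the 18193 genes on the array. The study compared mouse embryos with maternal uniparental disomy of the whole of chromosome 18 (matUPD18, both copies from the mother) with embryos with the paternal disomy (patUPD18, both copies from the father). Both groups were whole embryos at 8.5 days post coitum (dpc), and each was read on 1 array. How many embryos went into each RNA and what their strain background was is not stated in those sources that were used here, and the labels do not say whether yolk sac was kept with the embryo. With 1 array per genotype the genotypes could not be tested against each other, and the spread between embryos is unknown.

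Visceral endoderm feeds the embryo before the liver and placenta work, taking up maternal proteins at its outer face and releasing carrier proteins towards the embryo. Many of its products are made again later by fetal and adult liver. Alpha-fetoprotein (Afp) and albumin (Alb) are sister genes of the albumin family and carry fatty acids and other small molecules. Transthyretin (Ttr) carries thyroid hormone and binds retinol-binding protein (Rbp4), which carries vitamin A alcohol. Spink1 encodes a small secreted inhibitor of trypsin.

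The albumin family genes lie side by side on chromosome 5, with Alb followed directly by Afp and then Afm, the afamin gene. To let the neighbours Afp, which differed between the arrays, and Alb, which was not measurable on them, be set side by side, the 150 bases before their starts are shown, with the same stretch for both starts of Rbp4 on chromosome 19. They are from RefSeq (GRCm38.p6), written 5′ to 3′ on the strand of the gene. Entries were found for 3 of the 5 genes; Ttr and Spink1 have none here. Capitals mark matches to a motif of the liver and endoderm factor HNF1 (GTTAATNAT, at most 1 mismatch at the named letters) or to the TATA box (TATAAA).
Alb, chr5:90460720-90460869, + strand: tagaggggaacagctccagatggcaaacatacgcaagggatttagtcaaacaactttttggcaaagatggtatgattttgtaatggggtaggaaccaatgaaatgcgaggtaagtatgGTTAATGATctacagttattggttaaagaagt
Afp, chr5:90490564-90490713, + strand: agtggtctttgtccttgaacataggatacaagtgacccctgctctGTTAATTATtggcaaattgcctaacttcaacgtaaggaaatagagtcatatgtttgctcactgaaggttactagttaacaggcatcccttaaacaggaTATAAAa
Rbp4, start farther upstream, chr19:38125322-38125471, - strand: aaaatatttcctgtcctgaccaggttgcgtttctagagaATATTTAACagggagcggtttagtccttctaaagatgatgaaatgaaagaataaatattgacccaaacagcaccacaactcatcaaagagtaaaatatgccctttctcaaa
Rbp4, start farther downstream, chr19:38124812-38124961, - strand: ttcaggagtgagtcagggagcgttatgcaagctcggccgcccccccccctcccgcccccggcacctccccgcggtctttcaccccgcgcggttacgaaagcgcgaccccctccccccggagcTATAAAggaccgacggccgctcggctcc

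Motifs were searched on both strands from 250 bases before to 50 bases after each start. Alb held an exact HNF1 match 32 to 24 bases before its start, and Afp held one 105 to 97 bases before its start. Rbp4 held a match with 1 mismatch, on the opposite strand, 111 to 103 bases before its upstream start, and no match at its downstream start. Of all 32851 promoter entries of this length, 13.1% held a match with at most 1 mismatch. The share with an exact match was not computed. The HNF4 motif CAAAGTCCA, with at most 1 mismatch, was found in Afp alone among these entries, 148 to 140 bases before the start, and in 8.47% of all entries. The forkhead motif TGTTTGC was found in Alb and Afp and in 5.07% of all entries, and its variant TGTTTAC at the upstream Rbp4 start and in 3.65% of all. CCAAT was found at least once in Alb, in Afp, where it overlaps the HNF1 match, and at the upstream Rbp4 start, but is common (37.4% of all entries). TATAAA was found in Afp, 7 to 2 bases before the start, and at the downstream Rbp4 start, 28 to 23 bases before it. It was found in 13.6% of all entries. All distances count from the start given by RefSeq, whose accuracy was not examined. Both albumin family neighbours thus hold an exact HNF1 match and a TGTTTGC match. These are letter matches in a fixed window and not evidence of binding.

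Values are MAS5 signal intensities, a background-corrected summary of the probes of 1 probe set in arbitrary units. They are comparable between arrays for 1 probe set but not between probe sets. Genes called brightest below, and summed signals, therefore give no order of abundance among the genes. A probe set was called measurable where its signal reached the 60th percentile of its array (190.1 in matUPD18, 184.9 in patUPD18) on at least 1 array. Log2 ratios are matUPD18 over patUPD18 after signals under each array's 40th percentile (84.2 and 82.5) were raised to it. Of the 12 probe sets, 8 were measurable, and all 8 were at least 2-fold higher in matUPD18. Among all 16696 measurable probe sets with 1 gene symbol, 546 (3.27%) were at least 2-fold higher in matUPD18. The 8 log2 ratios ran from 1.97 to 4.49 with a median of 2.83, beside a median of -0.02 over all measurable probe sets. By gene, read at the brightest probe set, 4 of the 5 were measurable and those 4 were at least 2-fold higher in matUPD18, beside 283 of 10484 measurable genes (2.70%). Of them Afp, Ttr and Rbp4 reached the limit on both arrays. Spink1 was measurable only through matUPD18, where it is high, and so had to read higher there, though not by 2-fold. By probe set, 7 of the 8 reached the limit on both arrays. In the opposite direction 187 of those genes (1.78%) passed 2-fold. The median log2 ratio of the 4 genes was 2.62, and that of all measurable genes was -0.04.

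**Figure D1:**
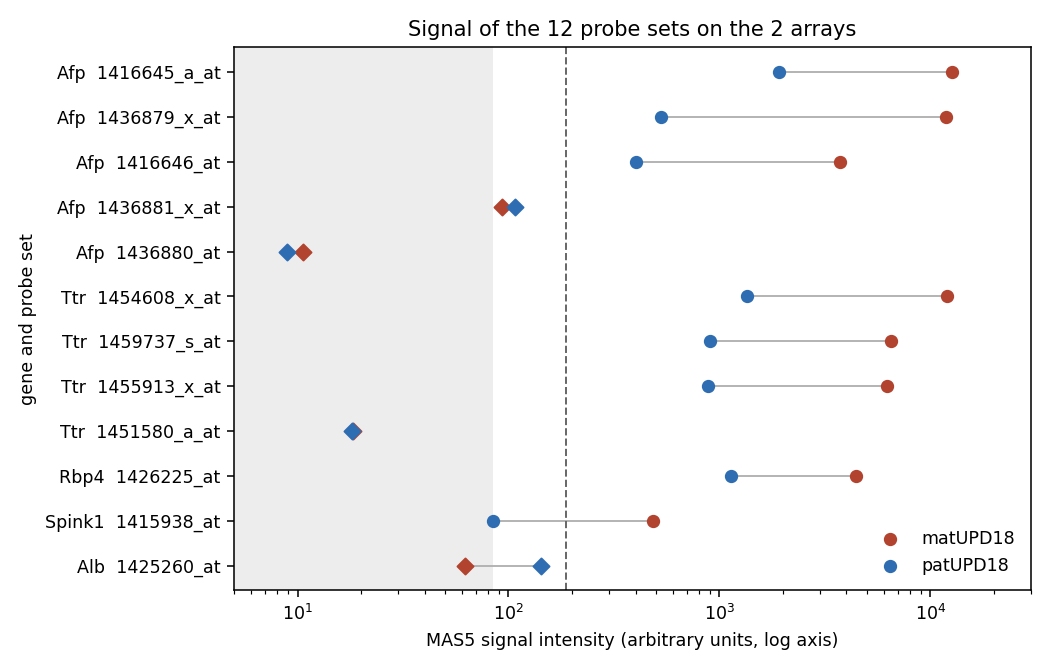
MAS5 signal (log axis, arbitrary units) of each of the 12 probe sets on the matUPD18 array (red) and the patUPD18 array (blue), with circles for measurable and diamonds for other probe sets. The grey area lies under the mean of both arrays' 40th percentiles, and the dashed line is the mean of their 60th percentiles. The 8 measurable probe sets read higher in matUPD18, the blue point of Spink1 sits at the edge of the grey area, and Alb reads lower in matUPD18.

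Afp, the main serum protein of the fetus, had 5 probe sets. Probe set 1416645_a_at read 12717 in matUPD18 and 1914 in patUPD18, a 6.64-fold difference. Probe set 1436879_x_at read 11798 and 526, a 22.4-fold difference, and its log2 ratio of 4.49 was the highest among the 16521 measurable probe sets that lay above the floor on both arrays. Without any floor it ranked 8th of all 16696, behind ratios with a signal under the floor. Its suffix _x_at marks probe sets with probes that can match other transcripts too. Probe sets 1416645_a_at and 1416646_at, without that suffix, had log2 ratios of 2.73 and 3.21. Probe set 1416646_at read 3722 and 401, a 9.28-fold difference. All 3 thus read higher in matUPD18, but the size of the difference was not shared. Their log2 ratios had an SD of 0.91, against a pooled SD of 0.44 between measurable probe sets of the same gene across 4003 genes. The brightest probe set gave the smallest of the 3 differences. The remaining 2 Afp probe sets were not measurable: 1436881_x_at read 93.4 and 107, and 1436880_at read 10.6 and 8.96, under the floor on both arrays. The position of the probe sets along the transcripts was not available here, so their distance from the 3′ end, which matters after RNA amplification, was not set against these differences.

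Ttr, the thyroid hormone carrier and partner of Rbp4, lies on chromosome 18 and had 4 probe sets. Probe set 1454608_x_at read 11979 in matUPD18 and 1349 in patUPD18, an 8.88-fold difference. Probe set 1459737_s_at read 6469 and 899 (7.20-fold), and 1455913_x_at read 6257 and 885 (7.07-fold). These 3 probe sets gave almost the same difference, with log2 ratios from 2.82 to 3.15 and an SD of 0.18, tighter than those of Afp. All 3 carry the suffix _x_at or _s_at, which marks probe sets with probes that can match other transcripts too. The remaining Ttr probe set, 1451580_a_at, read 18.4 and 18.1, under the floor on both arrays, so no Ttr probe set without those suffixes gave a measurable signal.

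Rbp4, the carrier of vitamin A alcohol, had 1 probe set, 1426225_at, which read 4441 in matUPD18 and 1130 in patUPD18. Its 3.93-fold difference was the smallest among the 4 measurable genes. Spink1, the trypsin inhibitor, also on chromosome 18, had 1 probe set, 1415938_at, which read 485 and 84.9, a 5.72-fold difference. The patUPD18 signal of Spink1 lay just above the floor of 82.5, so the size of its ratio depends on that floor, as the log2 ratio of 1.39 with a floor at the 60th percentile shows against 2.52 with the main floor. For Rbp4 and Spink1 no second probe set was present to set beside these values.

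Alb, the main serum protein after birth, had 1 probe set, 1425260_at. It read 62.0 in matUPD18, where 32.9% of the array's probe sets were dimmer, and 142 in patUPD18, where 53.9% were dimmer. The signal was not measurable on either array and lay under the floor in matUPD18, so only a bound of at least 1.69-fold higher in patUPD18 can be given, and with the floor at the 60th percentile the log2 ratio was 0.04. Its direction is therefore not settled by these signals. Afm, the neighbour on the other side of Afp, read 152 and 196 (log2 ratio -0.36) by its brightest probe set. Neither of the genes beside Afp in the albumin family cluster thus read higher in matUPD18.

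**Figure D2:**
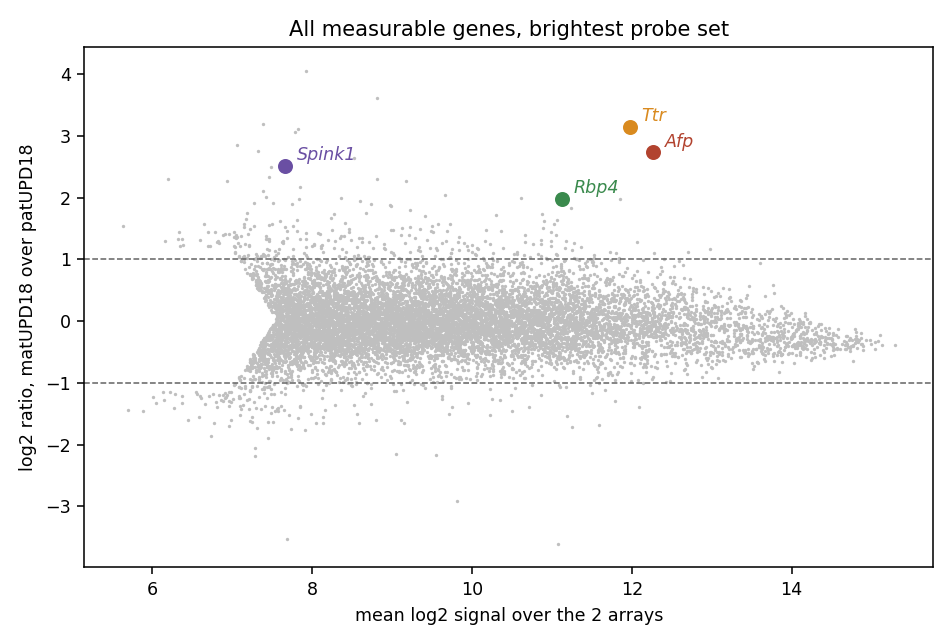
Log2 ratio (matUPD18 over patUPD18) against mean log2 signal over both arrays for the 10484 measurable genes at their brightest probe set (grey), with the 4 measurable carrier genes in colour and dashed lines at 2-fold. Ttr and Afp lie at high signal, where few other genes leave the 2-fold band, and Spink1 lies at low signal, where more do.

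Ratios spread more among dim genes, so each carrier gene was also set beside the measurable genes nearest to it in mean signal. Afp and Ttr each had a larger log2 ratio than all 499 non-carrier genes of like signal, of which 0.601% and 0.802% were at least 2-fold higher in matUPD18. Rbp4 had a larger ratio than all 500 genes of like signal, of which 2.60% passed 2-fold. Of the 500 genes near Spink1, 498 lay above the floor on both arrays, and none of these had a larger ratio; the other 2 lay under the floor on 1 array and had larger ratios without a floor. Among the 10402 measurable genes above the floor on both arrays, Ttr ranked 2nd by ratio, Afp 3rd, Spink1 5th and Rbp4 14th. Among all 10484, with signals raised to the floor, they ranked 4th, 9th, 11th and 25th, and without a floor 11th, 15th, 20th and 37th. Spink1 was measurable only through matUPD18, where it is high, and its patUPD18 signal of 84.9 lay just above the floor of 82.5. Its place among genes above the floor on both arrays thus depends on these cuts.

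The genes whose pair of signals came nearest to each carrier were found by Euclidean distance in log2 signal over the 2 arrays. Signals under the floor were first raised to it. For Spink1 they were Trap1a (distance 0.07), Apoc2 (0.20) and Slc2a2 (0.23), which encodes a glucose transporter. They were higher in matUPD18 by at least 5.65-fold, 6.73-fold and 5.04-fold. In patUPD18 they read 69.1, 45.8 and 74.6, under the floor of 82.5, so their short distances to Spink1 depend on that floor. For Rbp4 they were Tenm4 (distance 0.19), Lrrfip1 (0.25) and Tcl1b3 (0.31), 3.56-fold, 3.11-fold and 2.99-fold higher in matUPD18. For Afp and Ttr no gene came as near: Mapk1ip1l was the nearest to both, at distances of 0.79 and 0.85, and was 3.93-fold higher in matUPD18. Pspc1 was the next nearest to both (1.07 and 1.33), and was 2.42-fold higher. Plk4 followed for Afp (1.15; 2.15-fold higher) and Tenm4 for Ttr (1.39). With 2 arrays this measure reads only the signal level and 1 difference, so it finds genes of like brightness and ratio.

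Since the genotypes differ in the parental origin of chromosome 18, the carriers on that chromosome were set beside the others. Ttr and Spink1, on chromosome 18, had log2 ratios of 3.15 and 2.52, and Afp (chromosome 5) and Rbp4 (chromosome 19) had 2.73 and 1.97. The pairs interleave, with Afp between the 2 genes on chromosome 18. Of the 268 other measurable genes on chromosome 18, 9 (3.36%) were at least 2-fold higher in matUPD18, beside 269 of 10169 (2.65%) on other chromosomes. In the opposite direction 1 (0.373%) passed 2-fold on chromosome 18 and 184 (1.81%) on other chromosomes. The median log2 ratios were 0.04 and -0.05. Impact, the paternally expressed imprinted gene of chromosome 18, checks the labels: by its brightest probe set the signals were 328 (matUPD18) and 2466 (patUPD18), whereas those of its other measurable probe set were 268 and 205.

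The 3 nearest measurable genes on each side of the carriers, in RefSeq gene order, did not reach the carriers' ratios. Genes that were not measurable or not on the array were skipped, so these neighbours are often not adjacent. For example, 30 genes lie between Ttr and Cdh2 and 23 between Spink1 and Rbm27. Around Ttr the 6 neighbours had log2 ratios from 0.23 to 1.16, all above 0, and 2 were at least 2-fold higher in matUPD18: the desmosomal cadherin gene Dsc2 (497 and 223, 2.24-fold) and the ubiquitin ligase gene Rnf138 (1500 and 693, 2.17-fold). Around Spink1 the neighbours ran from -0.39 to 0.92, and none of the 6 passed 2-fold. Around Rbp4 they ran from -0.08 to 0.62, and again none of the 6 passed. Around Afp they ran from -1.53 to 0.48, and Pf4, a platelet chemokine gene measurable only through patUPD18, was 2.88-fold higher there (124 and 356). The Ttr neighbourhood was thus the one of the 4 in which all neighbours leaned the same way as the carrier, the furthest at 1.16 against 3.15 for Ttr.

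**Figure D3:**
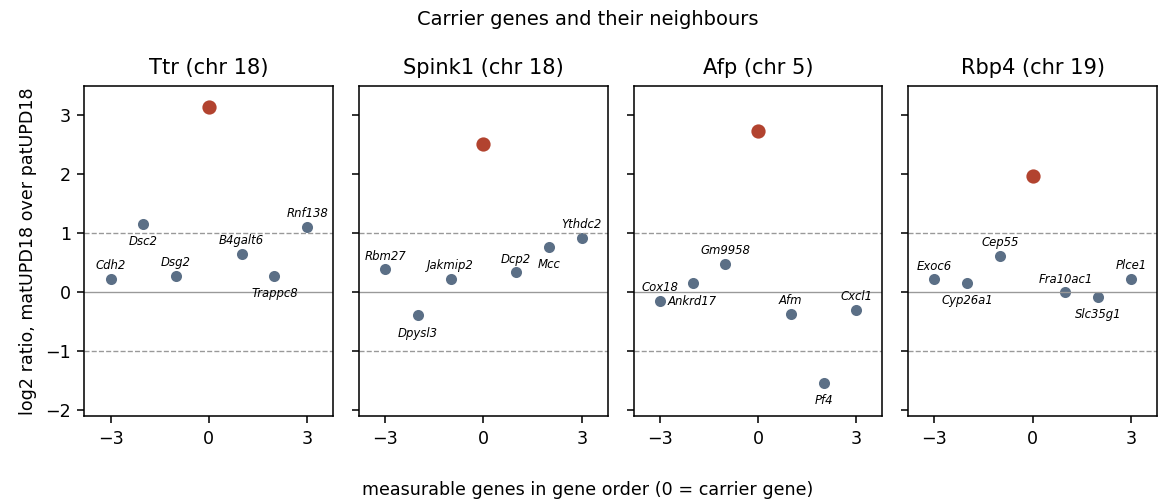
Log2 ratio (matUPD18 over patUPD18) of Ttr, Spink1, Afp and Rbp4 (red) and of the 3 nearest measurable genes on each side (grey-blue), in gene order. Dashed lines mark 2-fold. Each carrier stands above its 6 neighbours, which lie between -1.53 and 1.16.

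Of other products of visceral endoderm, 12 passed 2-fold in the carriers' direction and 10 lay within 2-fold. In a list of 31 visceral endoderm markers that holds none of the carriers, 22 of the 28 genes on the array were measurable. Of these 22, 12 passed 2-fold towards matUPD18 and none towards patUPD18, beside 2.70% and 1.78% of all measurable genes. The median log2 ratio of the 22 was 1.40. Of the 12, 11 were measurable only through matUPD18, where they are high, and so had to read higher there, though not by 2-fold. Gata4, also measurable only through matUPD18 (240 and 175), lay within 2-fold. Of the 22 genes, 10 reached the limit on both arrays, and 1 of these passed 2-fold. The count and the median are therefore descriptions only. Apoa1, the main protein of high-density lipoprotein, read 1366 and 43.5 (at least 16.6-fold higher in matUPD18). Apom, another apolipoprotein, read 756 and 36.7 (at least 9.17-fold), although a second measurable probe set gave a log2 ratio of 0.37. The tight junction gene Cldn2 was at least 8.66-fold higher and Cubn, the uptake receptor cubilin, at least 8.37-fold higher. Dab2, an endocytic adaptor (2254 and 1532), and Sox17, an endoderm transcription factor (1243 and 1146), lay within 2-fold. The summed signal of the 28 genes, a total that bright probe sets dominate, as for the sums below, was 15760 in matUPD18 and 6697 in patUPD18, and Cited1 was under the floor on both arrays. In whole-embryo RNA a difference in the number of cells of a type and one in the RNA per cell cannot be told apart. The part that the amount of visceral endoderm had in the carriers' differences was not tested.

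Of 40 listed transcription factors of the albumin family genes and of visceral endoderm, 25 were measurable, these 25 lay within 2-fold at their brightest probe set, and their log2 ratios ran from -0.47 to 0.96 with a median of 0.15. The brightest were Ctnnb1 (20974 and 25428), the Wnt pathway effector, and Nfyc (4597 and 5526), a subunit of the CCAAT-binding factor. The list shares 6 factors with the visceral endoderm list, all 6 of them measurable and within 2-fold. Among these, picked after their values were seen, Gata6 read 490 and 252 (log2 ratio 0.96) and Hnf4a read 467 and 256 (0.87), though the other measurable probe set of Hnf4a had -0.24. Zhx2 and Zbtb20, known repressors of Afp after birth and also picked after their values were seen, had log2 ratios of 0.34 and 0.15 by their brightest probe sets, with 1.11 at the other measurable probe set of Zbtb20. Nr2f2, a nuclear receptor gene, likewise had 0.14 at its brightest probe set and 1.01 at another measurable one.

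Most other plasma proteins gave little signal. Of 53 listed plasma carriers and serum proteins other than the 5 genes, 44 were on the array, 13 were measurable, and their median log2 ratio was 0.01. Of the 13, 1 passed 2-fold towards matUPD18, Rbp3, a retinoid carrier of the eye (202 and 98.5). In the other direction 1 passed, Itih2, a serum hyaluronan-binding protein gene (93.3 and 197). Each was measurable only through the array where it is high, and none of the 10 genes at the limit on both arrays passed 2-fold. The brightest, Igfbp4, a carrier of insulin-like growth factors, read 6562 and 9242, and the lipid transfer protein gene Pltp read 1284 and 1597. Another 13 were under the floor on both arrays, among them Hp, Ahsg and Orm1, which adult liver secretes. The median of the 13 measurable genes thus lay near that of all measurable genes (-0.04). It leaves out 31 genes on the array that were not measurable, and some of these read higher in matUPD18. Picked after their values were seen, these were Fgg (190 and 53.5), F2 (185 and 80.4), Fga (151 and 5.66) and Plg (136 and 14.7). Others read lower there, such as Lcn8 (89.8 and 181) and Serpind1 (83.5 and 110).

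Genes that handle the carriers' ligands were also mostly within 2-fold. Of 37 listed genes of retinol and thyroid hormone handling, 23 were measurable and 20 of these lay within 2-fold, with a median of -0.17. The exception in the carriers' direction was Cubn, which also stands on the visceral endoderm list. In the other direction, the retinoic acid degrading enzyme gene Cyp26b1 read 122 and 331 (2.71-fold higher in patUPD18). The retinaldehyde oxidising enzyme gene Aldh1a1 read 48.0 and 199 (at least 2.37-fold). Cubn, Cyp26b1 and Aldh1a1 were each measurable only through the array where they are high. None of the 17 genes at the limit on both arrays passed 2-fold. The brightest were Fabp5, a lipid chaperone (23304 and 29317), and Aldh1a2, the main retinoic acid synthesising enzyme of the early embryo (3474 and 2139, 1.62-fold higher in matUPD18). Stra6, the cell-surface receptor for Rbp4, picked after its values were seen, read 41.3 and 158 and was not measurable. Of 26 listed relatives and targets of Spink1, 4 of the 17 on the array were measurable, all 4 within 2-fold, among them the protease inhibitor genes Spint2 (972 and 869) and Serpinb6a (1123 and 1187), and 8 were under the floor on both arrays.

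Markers of other tissues were read in the same way. Of 12 listed liver and foregut genes 4 were measurable, with a median log2 ratio of -0.11 and none past 2-fold; the summed signal of the 12 genes was 2986 in matUPD18 and 2785 in patUPD18, and Ahsg, Nkx2-1, Otc, Pck1 and Prox1 were under the floor on both arrays. Hhex, an early liver and endoderm factor, read 742 and 617, and Shh, made by gut endoderm and notochord, read 1320 and 1181. Of 13 parietal endoderm genes 11 were measurable, none passed 2-fold, and the summed signals were 16240 and 16089; Lamb1 (4554 and 4483) and Col4a1 (4335 and 4913), of basement membrane, were the brightest. Of 18 trophoblast and decidua genes 5 were measurable with a median of 0.50, and the summed signals of the 13 on the array were 8706 and 6794. Dcn, made by decidual stroma, was 2.59-fold higher in matUPD18 (222 and 85.8), but was measurable only through that array. Krt8 (7072 and 5546) and Plac1 (404 and 242) lay within 2-fold, and Ascl2, Ctsq, Prl8a6 and Tpbpa were under the floor on both arrays. Primitive red cell genes, from blood islands of the same yolk sac, ran the other way. Of 10 measurable, 6 passed 2-fold towards patUPD18 and none towards matUPD18, beside 1.78% and 2.70% of all measurable genes. The median of the 10 was -1.28, and the summed signals of the listed genes on the array were 46626 and 71720. The 6, of which 5 reached the limit on both arrays, were Ermap (319 and 1005, 3.15-fold) and the anion exchanger gene Slc4a1 (2695 and 7093), both of the red cell membrane, Hemgn (533 and 1399), the erythroid factor genes Gata1 (144 and 371) and Klf1 (267 and 679), and Alas2 (262 and 608), of haem synthesis. The embryonic globin genes Hbb-bh1 (17620 and 26632) and Hbb-y (23063 and 30979) lay within 2-fold by their brightest probe sets, while the dimmest measurable one of each read further apart (2969 and 11877 for Hbb-bh1, 1527 and 6224 for Hbb-y). The part of these tissues in the carriers' differences was not tested.

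**Figure D4:**
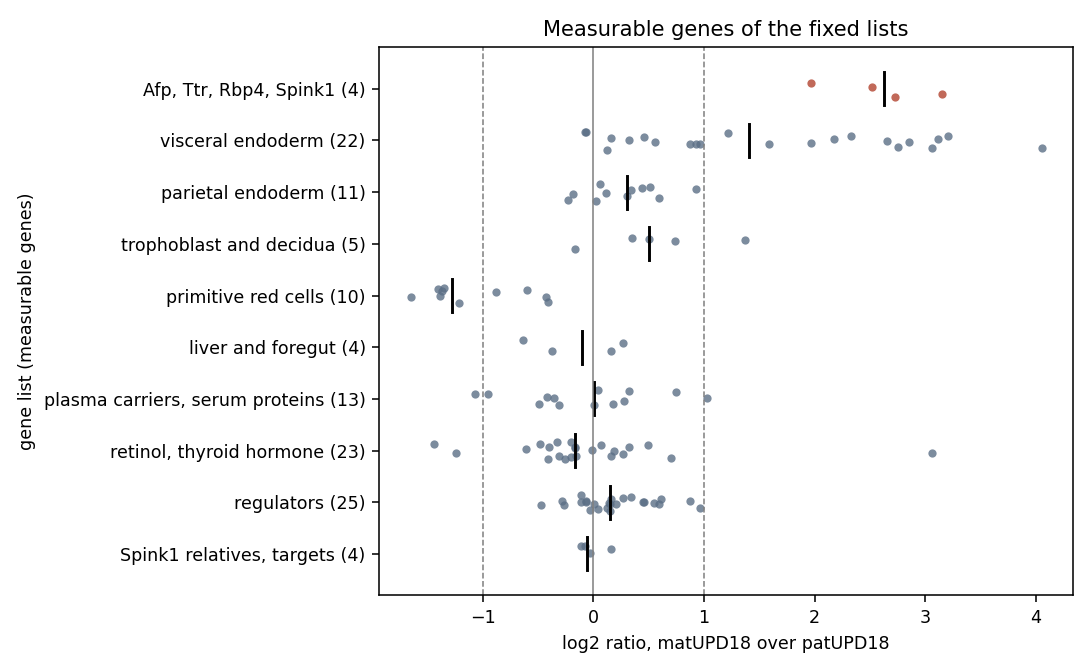
Log2 ratio (matUPD18 over patUPD18) of each measurable gene at its brightest probe set, for the 4 carriers (red) and each list (grey-blue; the number of measurable genes in brackets), with the list median as a black bar and dashed lines at 2-fold. Some genes stand on more than 1 list. The carriers and the visceral endoderm list lie to the right (medians 2.62 and 1.40) and the red cell list to the left (median -1.28). Of the 12 visceral endoderm genes past 2-fold, 11 were measurable only through matUPD18, and so had to read higher there. Of the 6 red cell genes past 2-fold, 1 was measurable only through patUPD18.

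The scaling of the arrays to each other moved the carriers' ratios little under median centring, quantile normalization and loess, and by about 0.50 under a scaling to control probe sets. Under median centring, quantile normalization and loess, Afp had log2 ratios of 2.75, 2.85 and 2.82, Ttr of 3.17, 3.24 and 3.21, Rbp4 of 1.99, 1.97 and 1.98, and Spink1 of 2.54, 2.48 and 2.49. The 9 bacterial and phage hybridisation controls had a median log2 ratio of -0.50, and scaling the arrays to them, which was tried after the data were seen, raised the median of all measurable genes from -0.04 to 0.46 and that of the 4 carriers to 3.13. That scaling adds 1 constant to all genes, so it does not bear on the carriers' distance from the rest. At a 4-fold threshold 3 of the 4 carriers still passed, among 21 genes in all, with Rbp4 just short of it.

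**Figure D5:**
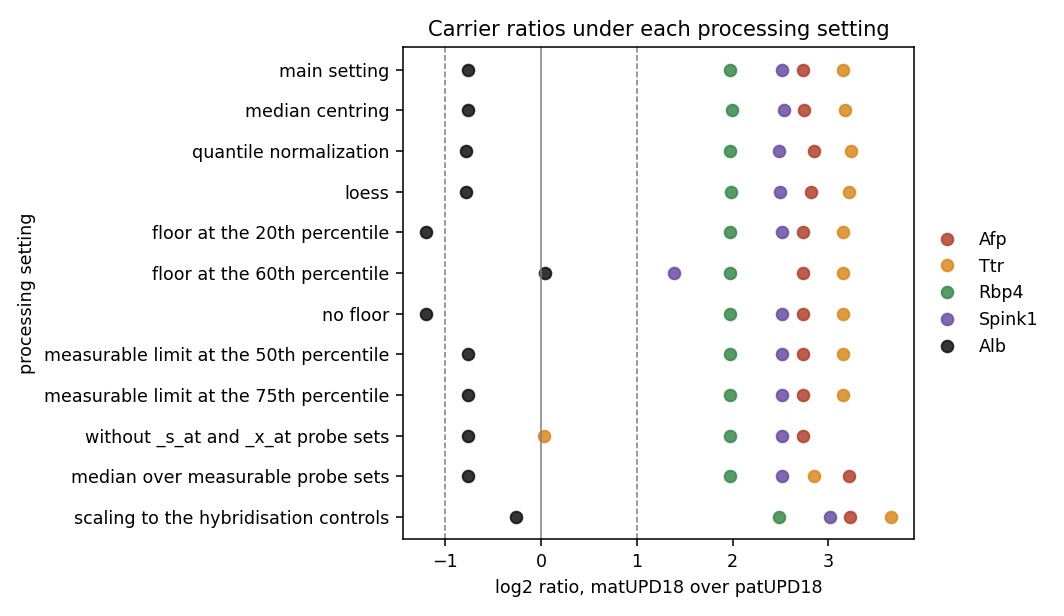
Log2 ratio (matUPD18 over patUPD18) of the 5 genes at their brightest probe set under each processing setting, with dashed lines at 2-fold. Afp lies between 2.73 and 3.23 and Rbp4 between 1.97 and 2.48, Spink1 drops to 1.39 with the highest floor, Alb moves between -1.20 and 0.04, and Ttr reads 0.03 without the _s_at and _x_at probe sets, where only a probe set under the floor is left.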

How the data were processed

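Each array came as 1 deposited MAS5 signal intensity for every probe set. The authors computed these intensities in MAS5/GCOS, as the submitters' processing notes say without a version. Per the labels' protocols, RNA was amplified (RiboAmp) and labelled with biotin. The 2% trimmed mean was 500.003 and 500.004, which shows a scaling to the same target that hides any shift common to most transcripts. Medians were 125.4 (matUPD18) and 122.0 (patUPD18). No further scaling was applied for the main values.

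Of 45101 probe sets, 34945 other than controls were annotated to 1 gene symbol, 932 to several and 9160 to none; symbols were updated through the Entrez identifier to RefSeq (GRCm38.p6) for 34741. A gene was read at its brightest probe set by mean over both arrays. Folds are the higher over the lower signal, given as "at least" where the lower was raised to the floor. The genes and lists were chosen with earlier results of these data known, and counts and medians over lists are descriptions. Genes named were the 5 carriers, Impact, the 3 nearest genes by signal, and from each list all past 2-fold (the 4 largest where over 6) with the 2 brightest within 2-fold; neighbours and those stated as picked later were added. Protein sequences were not used here. The procedure was tested on simulated data. Python 3.11.15, pandas 2.3.3, numpy 2.4.6, statsmodels 0.14.6 and matplotlib 3.10.9 were used.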

Additional observations from a re-analysis of the deposited data

How the results depend on the processing

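Each value was recomputed under other scalings, floors, measurable limits, probe set rules and fold thresholds. A log2 ratio was taken to have moved where it changed by more than 0.44, the SD between probe sets of a gene. A count was taken to have moved where it changed by over 1.5 times. Of 93 recomputed values 80 did not move, but some of these could not. The measurable limit does not enter a gene's own ratio, and no floor used reaches the brightest probe sets of Afp, Ttr and Rbp4. A 1.5-fold threshold cannot lower a count. The count of carrier genes higher in matUPD18 past the fold threshold of each setting was 3 to 4. It was 3 of 4 at the 4-fold threshold and 3 of the 3 then measurable without _s_at and _x_at probe sets. With the measurable limit at the 50th percentile it was 4 of 5. Without _s_at and _x_at probe sets the count of probe sets fell from 8 to 4, of the 4 then measurable, and Ttr had a log2 ratio of 0.03 from a probe set under the floor, since fewer probe sets were left. Read as the median over its measurable probe sets, Afp had 3.21. With the floor at the 60th percentile Spink1 had 1.39 and Alb 0.04; with the floor at the 20th percentile or none Alb had -1.20. Scaling to the hybridisation controls, added after seeing the data, gave 3.23 for Afp, 3.65 for Ttr, 2.48 for Rbp4, 3.02 for Spink1, -0.26 for Alb and 3.13 for the median of the 4 genes, and by construction moved all genes alike: 1364 of 10484 genes then passed 2-fold, against 283. At the 1.5-, 3- and 4-fold thresholds 1045, 48 and 21 genes passed, and with the limit at the 75th percentile 175 of 7376. No paired analysis was possible because each group holds 1 array. Array number, not depth, limits the precision: with 1 array a group there is no measure of the spread between embryos.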
